A study of Mus musculus with 89 samples.

Results

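Genes that mark the successive stages of the cortical excitatory lineage, from radial glia to layer neurons, were followed in the forebrain of 2 mouse models of Down syndrome at embryonic day 18.5. They were taken as the probe sets whose single gene symbol is one of the 40 listed genes. Of these, 38 genes were measured on 39 of the 22206 probe sets of the array, since Rorb has 2 probe sets, and Neurod1 and Pou3f3 are not named in the probe annotation used here. The 39 probe sets comprise 12 for radial glia, 5 for intermediate progenitors, 6 for newborn and migrating neurons, 7 for deep layer and subplate neurons, 7 for upper layer neurons and 2 for vesicular glutamate transporters. None of the listed genes lies on mouse chromosome 16 or 17 (Mmu16, Mmu17), so 0 of 40 are present in an extra copy in either model.

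Radial glia line the ventricle of the developing cortex and are its founding neural progenitors. They divide to give intermediate progenitors or neurons directly, and their long fibres guide newborn neurons towards the cortical plate. Neurons of the deep layers and the subplate are born before those of the upper layers, and late in gestation radial glia turn from making neurons to making glia. Nearly all neurons of this lineage come to use glutamate, which vesicular transporters load into synaptic vesicles.

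The series compared 4 groups of embryos, each embryo on 1 array, on a mixed B6 and C3H background. Ts65Dn (23 embryos, 13 labelled female) carries an extra chromosome joining a distal part of Mmu16, rich in orthologues of human chromosome 21 genes, to a proximal part of Mmu17 that holds no such orthologues. EupTs65Dn (18 embryos, 9 labelled female) are the euploid littermates of Ts65Dn. Ts66Yah (24 embryos, 13 labelled female) carries the Mmu16 part without that Mmu17 part, and EupTs66Yah (24 embryos, 11 labelled female) are its euploid littermates. All embryos were untreated, and the extra chromosome is inherited rather than induced by a transgene in a chosen cell type. Ts65Dn males are infertile, so the extra chromosome came from the dam, whereas the Ts66Yah colony descends from 3 founder females and was expanded through the sperm of 4 males. The embryos came from 12 dams, 6 in each colony, and litters are named here by the code of the dam (TS11 to TS42, WT11 to WT19).

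The deposited values are log2 signals. Mean signals per array ran from 5.26 to 5.33 in the Ts65Dn colony and from 6.35 to 6.41 in the Ts66Yah colony, apart from 1 array described next, so levels were compared only within a colony. The array of replicate 16 of EupTs66Yah had a standard deviation over all probe sets of 1.13, against 2.23 or more on every other array. It was left out of the main test of the Ts66Yah colony, and values with every array kept are given for the count, for each stage mean and where a gene described in full moves by over 1.5 times. As a check of the genotype labels, 28 of 28 probe sets of triplicated Mmu16 genes were higher and passed the test in both models. Their mean signal was 8.82 ± 0.106 in Ts65Dn and 8.37 ± 0.046 in EupTs65Dn (SD, n = 23 and 18), and 9.76 ± 0.140 in Ts66Yah and 9.34 ± 0.113 in EupTs66Yah (SD, n = 24 and 23). For these Mmu16 genes 4 arrays had the level of the opposite genotype (1 of Ts65Dn, 2 of Ts66Yah and 1 of EupTs66Yah), and they were kept in the main test. In the Ts65Dn colony 38 of the 39 probe sets lay at or above the median signal of all probe sets, and in the Ts66Yah colony 35 did. Neurog1 was the dimmest in both colonies, with only 20.5% and 13.4% of all probe sets below it.

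In Ts65Dn forebrain no member differed from euploid littermates at an adjusted p under 10% (limma, Benjamini-Hochberg over all probe sets), whereas 0.491% of all probe sets did, 0.459% higher and 0.0315% lower. Across the 39 probe sets the unpaired t-test of the series called 0 as well, and 1 reached an unadjusted p under 0.05, namely Fabp7. That is 2.56% of the members, against 5.79% of all probe sets. The Ts65Dn mean lay above the euploid mean for 13 probe sets and below it for 26, with a median log2 difference of -0.044, against -0.0021 over all probe sets, of which 51.0% lay below. Outside radial glia, 21 of 27 probe sets had a lower mean in Ts65Dn than in EupTs65Dn, with a median log2 difference of -0.055. The differences were small: the 95% interval stayed within 1.2-fold in either direction for 31 of 39 probe sets and within 1.5-fold for all 39.

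In Ts66Yah forebrain 1 of 39 probe sets passed the same test, that of Vim, which was 1.14-fold higher than in euploid littermates. Of all probe sets 0.932% passed, 0.757% higher and 0.176% lower. The Ts66Yah mean lay above the euploid mean for 24 of the 39 probe sets and below it for 15, with a median log2 difference of 0.031, against 0.0044 over all probe sets. The share of all probe sets with a higher mean in Ts66Yah is not given here. At an unadjusted p under 0.05 there were 4 probe sets (Vim, Hopx, Cux1 and Slc17a7), which is 10.3% of the members against 12.1% of all probe sets. The 95% interval stayed within 1.2-fold for 28 of 39 and within 1.5-fold for all 39. With every array kept, 30 of 39 had a higher mean, 0 passed, and the median was 0.16, against 0.043 over all probe sets. Keeping the low-spread array turned the sign of the difference for 10 of the 39 and made it over 1.5 times larger for 21 others. These are signals of whole hemispheres, in which fewer cells of a type and less RNA per cell cannot be told apart.

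**Figure D1:**
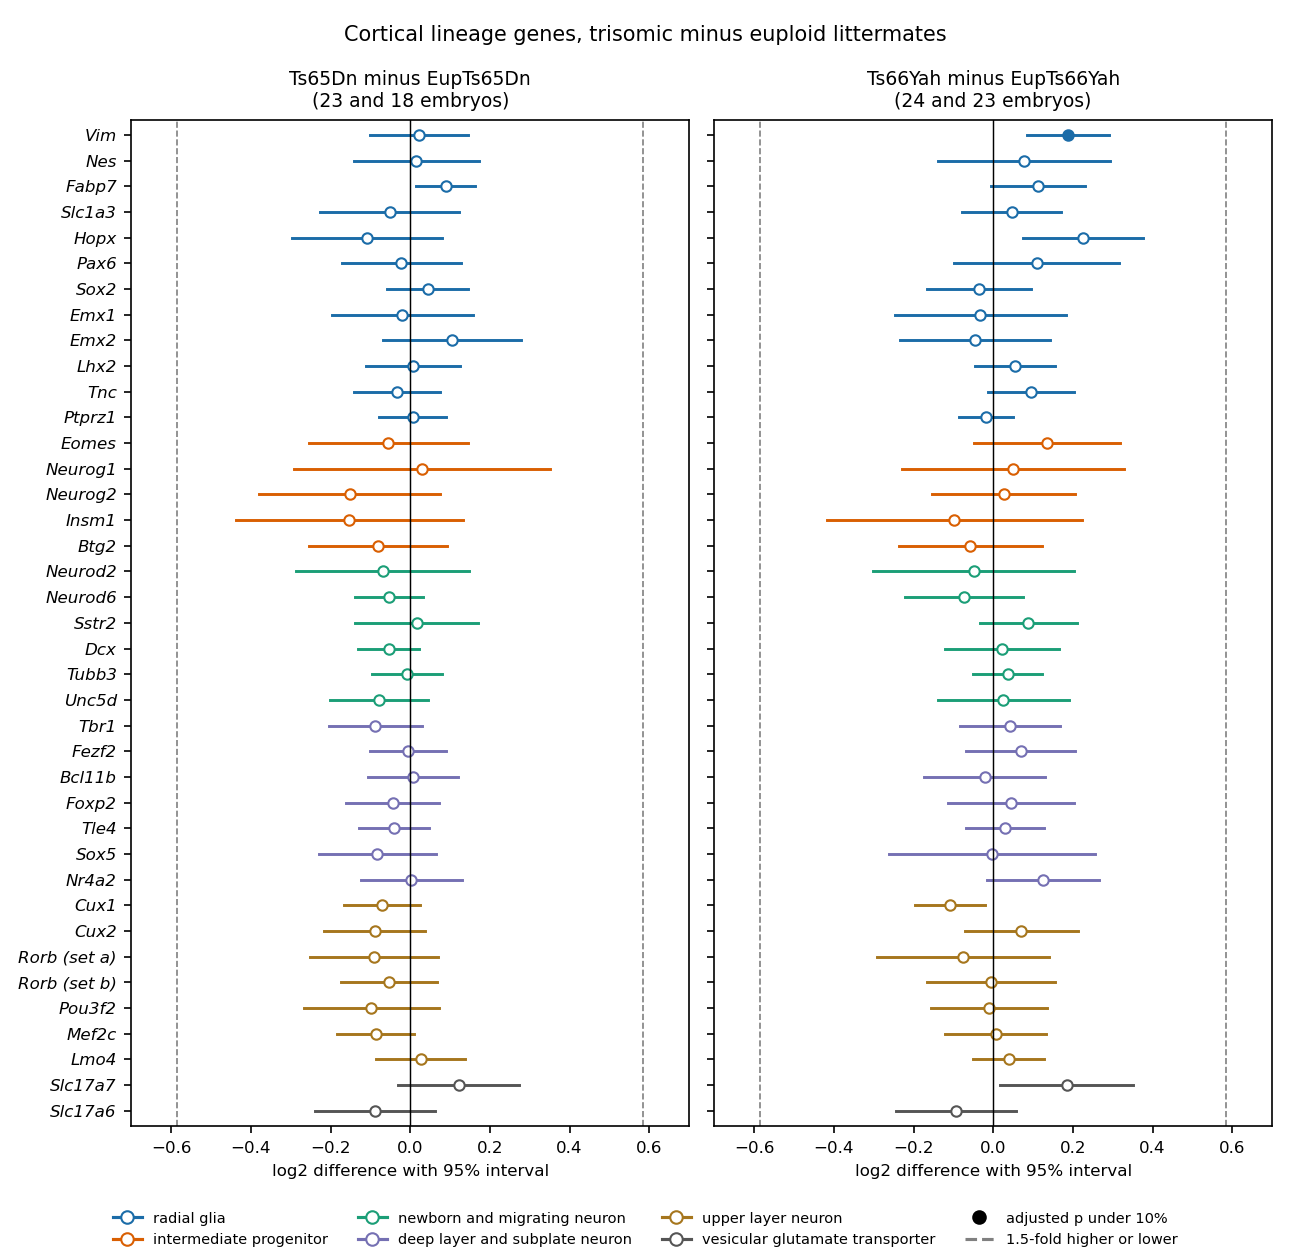
Log2 difference of each of the 39 probe sets with its 95% interval, for Ts65Dn minus EupTs65Dn (left) and Ts66Yah minus EupTs66Yah without the low-spread array (right), coloured by stage. The filled point is Vim in Ts66Yah, the 1 member past the 10% threshold, and every interval lies inside the dashed lines at 1.5-fold.

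Radial glia were represented by the filament proteins Vim and Nes, the lipid carrier Fabp7, the glutamate transporter Slc1a3, the homeodomain-only protein Hopx, the transcription factors Pax6, Sox2, Emx1, Emx2 and Lhx2, the matrix protein Tnc and the receptor phosphatase Ptprz1. In Ts65Dn 7 of the 12 had a higher mean and 5 a lower one, with a median log2 difference of 0.0069. In Ts66Yah 8 had a higher mean and 4 a lower one, with a median of 0.066. Of the 12, 1 passed the test in Ts66Yah and 0 in Ts65Dn.

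Vim encodes vimentin, an intermediate filament protein of radial glial fibres that astrocytes, endothelial cells, pericytes and meningeal cells also make. The 24 Ts66Yah embryos had log2 signals between 10.27 and 10.77 with a median of 10.46, against 9.94 to 10.70 with a median of 10.26 in the 23 EupTs66Yah embryos. Each of the 24 Ts66Yah embryos lay above the euploid median, although the groups overlapped. These groups follow the labels, and 2 of the Ts66Yah arrays had the opposite level of the Mmu16 genes. The highest euploid value, 10.70, was on the 1 EupTs66Yah array that also had the opposite level. The log2 difference was 0.19 (SE 0.051, 95% interval 0.084 to 0.29, limma adjusted p = 0.085), which is 1.14-fold with an interval of 1.06 to 1.22-fold. The low-spread array of EupTs66Yah stood at 4.67 for Vim, and with it the log2 difference was 0.42 (SE 0.23, limma adjusted p = 0.51). In Ts65Dn, by contrast, Vim signals ran from 9.36 to 10.25 with a median of 9.87, against 9.54 to 10.13 with a median of 9.83 in EupTs65Dn. That difference was 0.022 on the log2 scale (SE 0.061), an interval of 0.93 to 1.11-fold.

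Within litters, mean Vim was higher in Ts66Yah than in euploid embryos in 5 of 6. The largest difference was in litter WT18, where 5 Ts66Yah embryos averaged 10.54 and 5 EupTs66Yah embryos 10.13, and the exception was litter WT11, where 3 Ts66Yah embryos averaged 10.37 and the single EupTs66Yah embryo was at 10.48. Vim had a higher mean in Ts66Yah under each of 20 other settings, with log2 differences from 0.13 to 0.42, but it passed the threshold in 7 of them. The t-test, the robust prior, the median-signal filter, the threshold of 0.05 and the marginal criterion (ratio over 1.2) keep the main log2 difference. Their sign was therefore fixed in advance. Vim could not pass the threshold of 0.05 or the marginal criterion, since its main limma adjusted p was 0.085 and its difference 1.14-fold. Leaving out litter WT12, WT13, WT15 or WT18 gave log2 differences of 0.20, 0.18, 0.18 and 0.13, with limma adjusted p of 0.25, 0.14, 0.30 and 0.48 in that order. With the litter as a block the log2 difference was 0.20 (limma adjusted p = 0.12), against 0.19 without the block. It was 0.14 (limma adjusted p = 0.31) with the standard deviation of each array as a covariate, and 0.15 (limma adjusted p = 0.41) without the 5 other EupTs66Yah arrays whose standard deviation lay below that of every Ts66Yah array. Of those 5 arrays 2 came from WT18, 2 from WT19 and 1 from WT15, and their part in the result was not tested. Without the arrays whose Mmu16 genes had the opposite level, the log2 difference was 0.22 and the adjusted p 0.017.

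**Figure D2:**
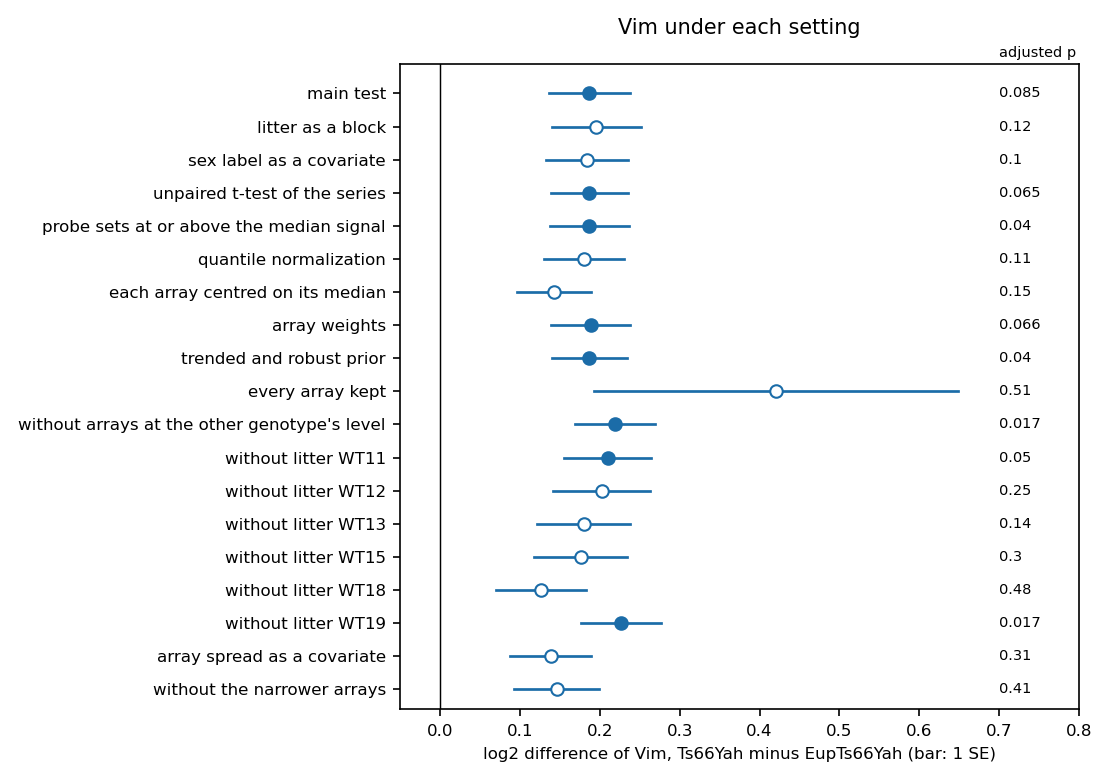
Log2 difference of Vim, Ts66Yah minus EupTs66Yah, with 1 standard error under the main test and under settings that change the fit, with the limma adjusted p (for the t-test setting, its own adjusted p) at the right. Filled points pass the 10% threshold, and all points lie above 0, from 0.13 without litter WT18 to 0.42 with every array kept. The t-test, the robust prior and the median-signal filter cannot move the point itself.

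The promoter of Vim is shown because Vim was the 1 member that passed, with that of Nes, the other filament gene of radial glia, for comparison. Both run 5′ to 3′ from 250 bases before to 50 bases after the RefSeq start on GRCm38.p6, at chr2:13574061-13574360 (plus strand) for Vim and chr3:87970843-87971142 (plus strand) for Nes. Capitals mark matches to the TATA box (letters TATAAA), to the CCAAT box (those letters) and to the GC box (letters GGGCGG), searched on both strands, and no matches overlap.
Vim: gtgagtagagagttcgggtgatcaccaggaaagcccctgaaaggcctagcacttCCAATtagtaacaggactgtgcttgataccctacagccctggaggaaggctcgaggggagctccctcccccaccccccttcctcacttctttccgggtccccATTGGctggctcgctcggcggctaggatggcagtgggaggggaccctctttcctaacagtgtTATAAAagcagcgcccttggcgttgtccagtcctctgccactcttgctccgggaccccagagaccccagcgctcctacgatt
Nes: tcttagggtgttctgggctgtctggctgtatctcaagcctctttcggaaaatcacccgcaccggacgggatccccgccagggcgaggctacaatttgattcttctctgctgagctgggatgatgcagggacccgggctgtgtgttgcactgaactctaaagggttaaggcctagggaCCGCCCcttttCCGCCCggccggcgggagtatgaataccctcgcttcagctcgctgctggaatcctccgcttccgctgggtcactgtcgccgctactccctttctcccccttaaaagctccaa
The Vim promoter held the TATA box beginning 32 bases before the start and the CCAAT box at 196 bases and, on the minus strand, at 94 bases before it. The Nes promoter held the GC box on the minus strand at 73 and 62 bases before the start. Among 32851 mouse promoters of the same length, 13.6% held the TATA box, 37.4% the CCAAT box and 35.7% the GC box. The E-box CANNTG was in neither window, and 72.3% of the promoters held it.

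Hopx, known as a marker of outer radial glia in the human cortex, had the next smallest p in Ts66Yah. Its signals ran from 6.24 to 6.96 with a median of 6.60 in Ts66Yah, against 5.49 to 6.91 with a median of 6.40 in EupTs66Yah. Although 21 of 24 Ts66Yah embryos lay above the euploid median, the log2 difference of 0.23 (SE 0.075) missed the threshold (limma adjusted p = 0.19). In Ts65Dn the Hopx signals ran from 4.84 to 6.14 with a median of 5.72, against 5.11 to 6.12 with a median of 5.79 in EupTs65Dn, a log2 difference of -0.11 (SE 0.093).

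Fabp7, the brain lipid-binding protein of radial glia, had the smallest p of all members in Ts65Dn. Its signals ran from 12.06 to 12.34 with a median of 12.25 in Ts65Dn, against 11.97 to 12.38 with a median of 12.12 in EupTs65Dn, and 21 of 23 Ts65Dn embryos lay above the euploid median. Fabp7 differed by 0.089 on the log2 scale (SE 0.037, unadjusted p = 0.022, limma adjusted p = 0.77). In Ts66Yah, Fabp7 signals ran from 12.76 to 13.55 with a median of 13.28, against 12.67 to 13.50 with a median of 13.19 in EupTs66Yah, a log2 difference of 0.11 (SE 0.059, limma adjusted p = 0.44), or 0.31 (SE 0.20) with every array kept. The groups overlapped in both colonies.

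Emx2, which patterns the cortical primordium, had the second smallest p of the radial glia genes in Ts65Dn. Its signals ran from 6.18 to 7.14 with a median of 6.80 in Ts65Dn, against 6.27 to 7.31 with a median of 6.60 in EupTs65Dn, a log2 difference of 0.10 (SE 0.086, limma adjusted p = 0.95). The other radial glia genes lay between log2 differences of -0.052 (Slc1a3) and 0.044 (Sox2) in Ts65Dn. In Ts66Yah the genes other than Vim, Hopx and Fabp7 lay between -0.046 (Emx2) and 0.11 (Pax6).

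**Figure D3:**
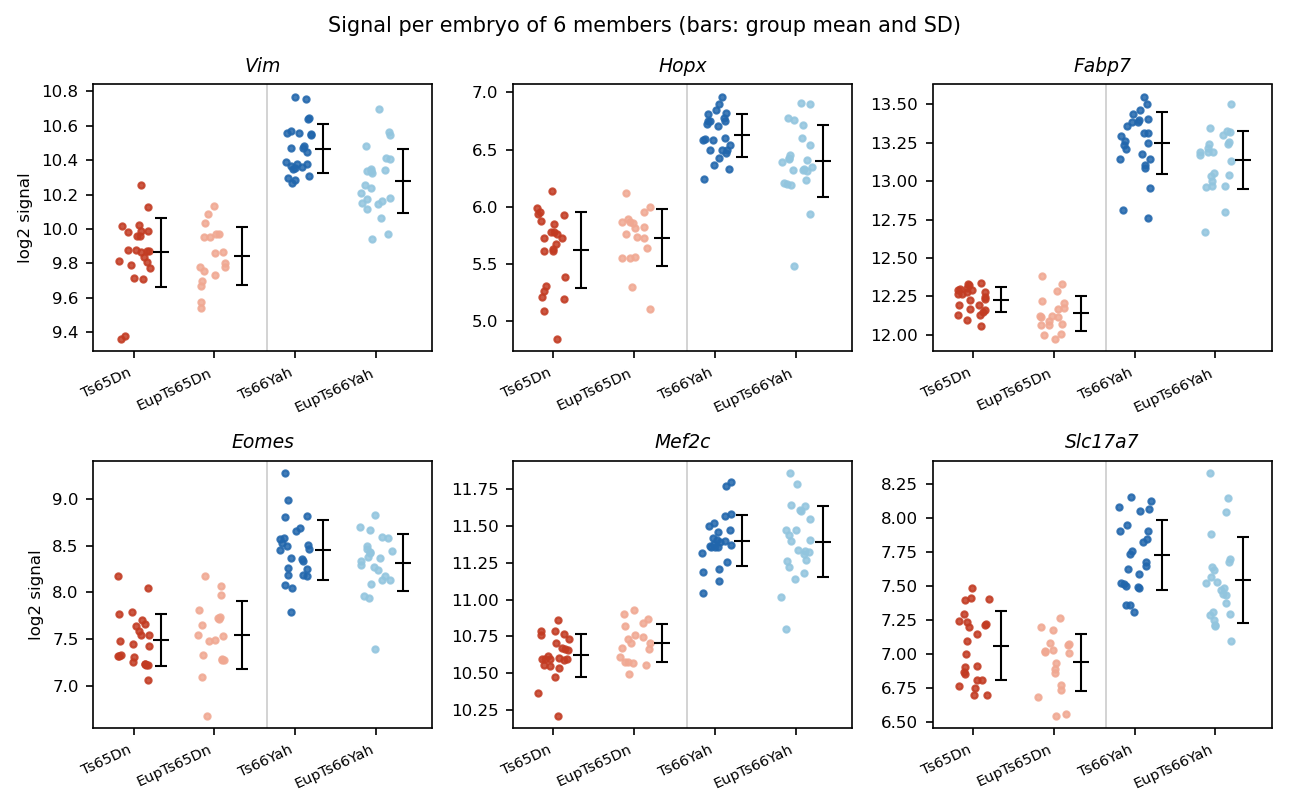
Log2 signal of 6 members in each embryo, with the group mean and SD as bars, for Ts65Dn, EupTs65Dn, Ts66Yah and EupTs66Yah, without the low-spread array. The groups overlap for each gene, and all 24 Ts66Yah embryos lie above the euploid median of 10.26 for Vim. Levels of the 2 colonies are not comparable.

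Intermediate progenitors were represented by Eomes, the transcription factor that defines them, by the proneural factors Neurog1 and Neurog2, by the zinc finger factor Insm1 and by the antiproliferative gene Btg2. In Ts65Dn 4 of the 5 had a lower mean, with a median log2 difference of -0.082, and in Ts66Yah 3 had a higher mean, with a median of 0.026. None passed the test in either model, and Insm1 and Neurog1 had the largest standard errors of all members. The interval for Insm1 was 0.74 to 1.10-fold in Ts65Dn and 0.75 to 1.17-fold in Ts66Yah. Apart from Eomes this stage was dim. In the Ts66Yah colony 13.4% of all probe sets lay below Neurog1, 43.2% below Neurog2, 47.5% below Insm1 and 50.5% below Btg2. In the Ts65Dn colony it was 20.5%, 51.2%, 57.2% and 51.1% in that order.

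Neurog2, which drives progenitors towards a glutamatergic neuronal fate, had signals of 4.77 to 6.33 with a median of 5.33 in Ts65Dn, against 4.97 to 6.07 with a median of 5.52 in EupTs65Dn. The log2 difference was -0.15 (SE 0.11, limma adjusted p = 0.93), and the Ts65Dn mean was the lower one in 5 of 6 litters. Insm1, which promotes the formation of basal progenitors, had signals of 4.53 to 6.77 with a median of 5.98 in Ts65Dn, against 5.37 to 6.58 with a median of 6.01 in EupTs65Dn. Its log2 difference was also -0.15 (SE 0.14, limma adjusted p = 0.97). The Ts65Dn values of both genes reached below and above those of their euploid littermates.

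Eomes had signals of 7.79 to 9.28 with a median of 8.46 in Ts66Yah, against 7.39 to 8.82 with a median of 8.36 in EupTs66Yah. The log2 difference was 0.13 (SE 0.091, limma adjusted p = 0.57), with differences between littermates from -0.27 in WT11 to 0.90 in WT13. Btg2, expressed in progenitors about to make neurons, had signals of 5.91 to 6.89 with a median of 6.35 in Ts66Yah, against 5.75 to 7.05 with a median of 6.44 in EupTs66Yah. Its log2 difference was -0.057 (SE 0.089, limma adjusted p = 0.83), or -0.11 with every array kept. In Ts65Dn the difference of Eomes was -0.055 (SE 0.099) and that of Btg2 -0.082 (SE 0.086).

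Newborn and migrating neurons were represented by the transcription factors Neurod2 and Neurod6, the somatostatin receptor Sstr2, the microtubule proteins Dcx and Tubb3 and the netrin receptor Unc5d. In Ts65Dn 5 of the 6 had a lower mean, with a median log2 difference of -0.054, and in Ts66Yah 4 had a higher mean, with a median of 0.024. None passed the test in either model.

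Dcx encodes doublecortin, which neurons need for migration. Its signals ran from 10.83 to 11.14 with a median of 10.98 in Ts65Dn, against 10.82 to 11.22 with a median of 11.06 in EupTs65Dn, a log2 difference of -0.054 (SE 0.038, limma adjusted p = 0.93). Unc5d, found in multipolar migrating neurons, had signals of 7.12 to 7.76 with a median of 7.41 in Ts65Dn, against 7.22 to 7.88 with a median of 7.50 in EupTs65Dn, a difference of -0.079 (SE 0.061, limma adjusted p = 0.94). Neurod6, a factor of differentiating pyramidal neurons, is described here because of its values, which had been seen. It had a lower mean in Ts65Dn than in its euploid littermates in 6 of 6 litters, from -0.18 in TS113 to -0.00030 in TS18 on the log2 scale. Its overall log2 difference was -0.053 (SE 0.042, limma adjusted p = 0.94), with 17 of 23 Ts65Dn embryos below the euploid median.

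Sstr2, the somatostatin receptor of migrating neurons, had signals of 8.39 to 9.18 with a median of 8.76 in Ts66Yah, against 8.21 to 8.91 with a median of 8.65 in EupTs66Yah. The log2 difference was 0.088 (SE 0.061, limma adjusted p = 0.58), or 0.24 with every array kept. Neurod6 signals ran from 10.86 to 11.88 with a median of 11.26 in Ts66Yah, against 10.96 to 11.94 with a median of 11.36 in EupTs66Yah, a log2 difference of -0.073 (SE 0.074, limma adjusted p = 0.73), or 0.11 with every array kept. The general neuronal tubulin Tubb3 was among the most precisely measured members, with intervals of 0.94 to 1.06-fold in Ts65Dn and 0.97 to 1.09-fold in Ts66Yah, where its log2 difference was 0.036, or 0.25 with every array kept.

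Deep layer and subplate neurons were represented by Tbr1, Foxp2 and Tle4 of corticothalamic neurons, Fezf2 and Bcl11b of subcerebral projection neurons, Sox5, which times the birth of deep layer subtypes, and the subplate gene Nr4a2. In Ts65Dn 5 of the 7 had a lower mean, with a median log2 difference of -0.041, and the intervals of all 7 stayed within 1.2-fold. In Ts66Yah 5 had a higher mean, with a median of 0.042. None passed the test in either model.

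Tbr1 signals ran from 8.74 to 9.58 with a median of 9.20 in Ts65Dn, against 8.92 to 9.49 with a median of 9.26 in EupTs65Dn. Tbr1 differed by -0.087 on the log2 scale (SE 0.057, limma adjusted p = 0.93), with the lower mean in Ts65Dn in 5 of 6 litters. Sox5 signals ran from 6.83 to 7.61 with a median of 7.32 in Ts65Dn, against 6.99 to 7.79 with a median of 7.36 in EupTs65Dn, a difference of -0.083 (SE 0.073, limma adjusted p = 0.96). The Sox5 difference rested on litter TS42, where it was -0.55, and without that litter it was 0.0071.

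Nr4a2, a nuclear receptor of subplate neurons, had signals of 8.81 to 9.78 with a median of 9.46 in Ts66Yah, against 8.50 to 9.71 with a median of 9.28 in EupTs66Yah. For Nr4a2 the log2 difference was 0.12 (SE 0.070, limma adjusted p = 0.48), with 19 of 24 Ts66Yah embryos above the euploid median. Fezf2, which specifies subcerebral projection neurons, had signals of 9.84 to 10.63 with a median of 10.13 in Ts66Yah, against 9.62 to 10.45 with a median of 10.12 in EupTs66Yah, a difference of 0.069 (SE 0.068, limma adjusted p = 0.72). With every array kept the differences were 0.21 for Nr4a2 and 0.17 for Fezf2. Neither gene separated the groups. In Ts65Dn the difference was 0.0025 (SE 0.063) for Nr4a2 and -0.0056 (SE 0.048) for Fezf2.

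Upper layer neurons were represented by the transcription factors Cux1, Cux2, Rorb, Pou3f2 and Mef2c and the cofactor Lmo4. In Ts65Dn 6 of the 7 probe sets had a lower mean, with a median log2 difference of -0.086, the lowest stage median in that model. In Ts66Yah 3 had a higher mean and 4 a lower one, with a median of -0.0059. None passed the test in either model. The 2 probe sets of Rorb had differences of -0.090 and -0.054 in Ts65Dn and of -0.075 and -0.0059 in Ts66Yah, or -0.070 and 0.12 with every array kept.

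Mef2c, a regulator of neuronal and synaptic maturation, had signals of 10.21 to 10.86 with a median of 10.60 in Ts65Dn, against 10.49 to 10.93 with a median of 10.70 in EupTs65Dn. Mef2c differed by -0.086 on the log2 scale (SE 0.048, unadjusted p = 0.078, limma adjusted p = 0.89). Cux1, a homeodomain factor of upper layer neurons that shapes their dendrites, had signals of 8.23 to 8.83 with a median of 8.57 in Ts65Dn, against 8.47 to 8.95 with a median of 8.65 in EupTs65Dn. Its difference was -0.071 (SE 0.047, limma adjusted p = 0.93), with 19 of the 23 Ts65Dn embryos under the median of all EupTs65Dn embryos.

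In Ts66Yah the signals of Cux1 ran from 9.50 to 9.98 with a median of 9.63, against 9.52 to 10.00 with a median of 9.75 in EupTs66Yah. The log2 difference was -0.11 (SE 0.043, unadjusted p = 0.017, limma adjusted p = 0.30), and 18 of 24 Ts66Yah embryos lay below the euploid median. Within litters the Ts66Yah mean was the higher one in 3 and the lower one in 3, from -0.26 in WT12 to 0.035 in WT19. With every array kept the difference of Cux1 was 0.011. Cux2, its close relative, had signals of 7.76 to 8.62 with a median of 8.22 in Ts66Yah, against 7.68 to 8.61 with a median of 8.23 in EupTs66Yah, a difference of 0.071 (SE 0.070, limma adjusted p = 0.72), or 0.16 with every array kept. The medians of Cux2 lay the other way round from the means, and the fitted difference was -0.0048 with array weights.

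The vesicular glutamate transporters differ in their timing: Slc17a6 (VGLUT2) prevails in the embryonic brain and in subcortical neurons, and Slc17a7 (VGLUT1) becomes the main cortical form after birth. Slc17a7 had the higher mean in the trisomic group of each colony and Slc17a6 the lower mean, with 0 of 2 past the test in either model. Slc17a7 signals ran from 6.70 to 7.48 with a median of 7.09 in Ts65Dn, against 6.54 to 7.26 with a median of 7.01 in EupTs65Dn, a log2 difference of 0.12 (SE 0.075, limma adjusted p = 0.92). They ran from 7.30 to 8.16 with a median of 7.70 in Ts66Yah, against 7.09 to 8.33 with a median of 7.48 in EupTs66Yah, a difference of 0.18 (SE 0.083, unadjusted p = 0.032, limma adjusted p = 0.37). In that colony 21 of 24 Ts66Yah embryos lay above the euploid median. The litters of Ts66Yah ranged from -0.52 in WT11 to 0.35 in WT12.

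Slc17a6 signals ran from 7.78 to 8.62 with a median of 8.17 in Ts65Dn, against 7.84 to 8.72 with a median of 8.26 in EupTs65Dn, a log2 difference of -0.088 (SE 0.075, limma adjusted p = 0.95). They ran from 8.08 to 9.61 with a median of 9.30 in Ts66Yah, against 8.84 to 9.74 with a median of 9.42 in EupTs66Yah, a difference of -0.094 (SE 0.075, limma adjusted p = 0.64). Here 20 of 24 Ts66Yah embryos lay below the euploid median, and with every array kept the difference was 0.17. The groups overlapped for both transporters.

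The mean of each stage in each embryo showed small differences within a broad spread among embryos. Radial glia averaged 8.27 ± 0.074 in Ts65Dn and 8.27 ± 0.078 in EupTs65Dn, and 9.17 ± 0.113 in Ts66Yah and 9.10 ± 0.105 in EupTs66Yah (SD, n = 23, 18, 24 and 23). Intermediate progenitors averaged 5.37 ± 0.196 in Ts65Dn and 5.45 ± 0.207 in EupTs65Dn, and 6.07 ± 0.178 in Ts66Yah and 6.06 ± 0.139 in EupTs66Yah. For this stage 18 of the 23 Ts65Dn embryos were under the median of all EupTs65Dn embryos.

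Newborn neurons averaged 9.48 ± 0.088 in Ts65Dn and 9.52 ± 0.094 in EupTs65Dn, and 9.90 ± 0.079 in Ts66Yah and 9.89 ± 0.130 in EupTs66Yah. Deep layer neurons averaged 8.61 ± 0.099 in Ts65Dn and 8.65 ± 0.098 in EupTs65Dn, and 9.48 ± 0.190 in Ts66Yah and 9.44 ± 0.197 in EupTs66Yah. Upper layer neurons averaged 8.23 ± 0.136 in Ts65Dn and 8.30 ± 0.093 in EupTs65Dn, with 17 of 23 Ts65Dn embryos below the euploid median, and 9.08 ± 0.150 in Ts66Yah and 9.09 ± 0.156 in EupTs66Yah. The transporters averaged 7.63 ± 0.183 in Ts65Dn and 7.61 ± 0.177 in EupTs65Dn, and 8.51 ± 0.157 in Ts66Yah and 8.46 ± 0.160 in EupTs66Yah. The difference of the group means was largest against its standard error for radial glia in Ts66Yah (0.065, SE 0.032) and for upper layer neurons in Ts65Dn (-0.066, SE 0.036), and no test was made of stage means. In the Ts66Yah colony these differences depended on the low-spread array. With every array kept they were 0.16 for radial glia, -0.011 for intermediate progenitors, 0.17 for newborn neurons, 0.17 for deep layer neurons, 0.10 for upper layer neurons and 0.20 for the transporters.

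**Figure D4:**
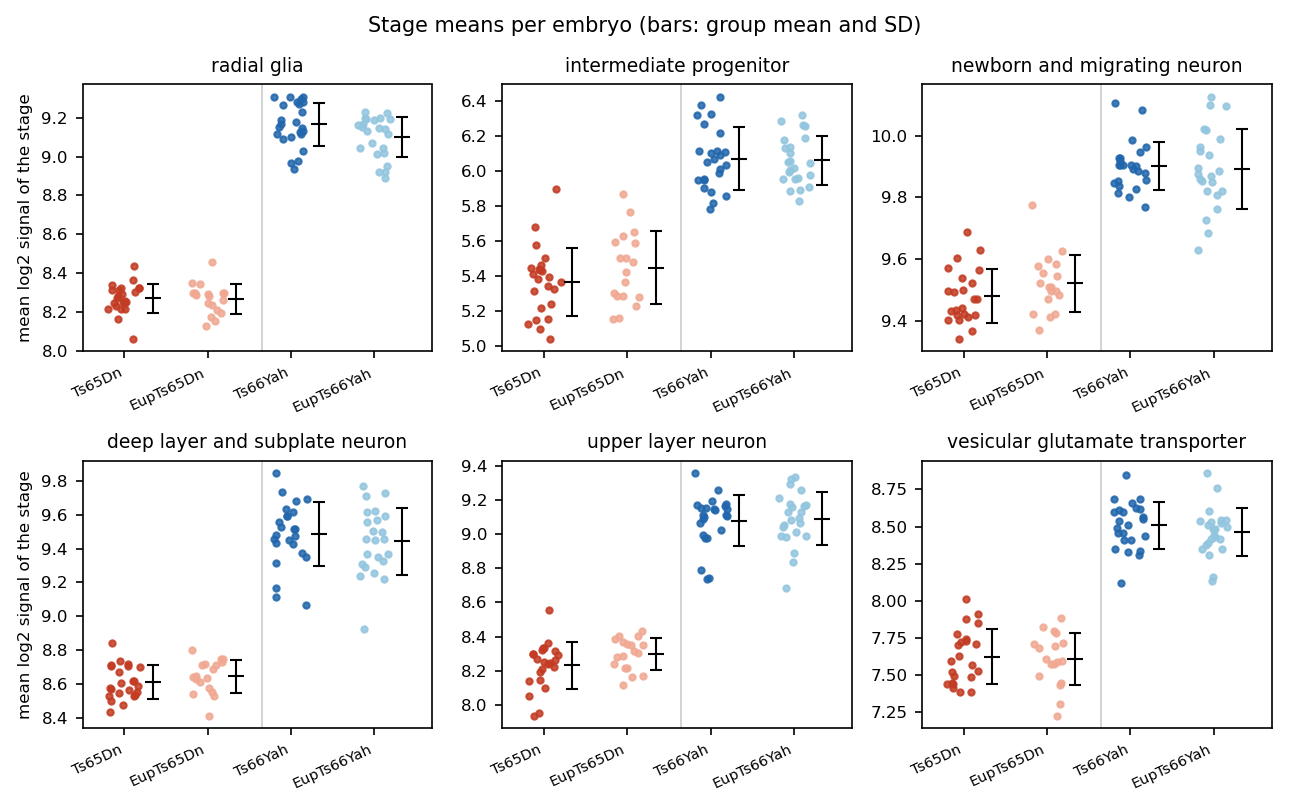
Mean log2 signal of the members of each stage in each embryo, with the group mean and SD as bars, for Ts65Dn, EupTs65Dn, Ts66Yah and EupTs66Yah, without the low-spread array. Trisomic and euploid embryos of a colony overlap in every panel, and the upper layer mean is 8.23 in Ts65Dn and 8.30 in EupTs65Dn. Levels of the 2 colonies are not comparable.

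Whether a member responds differently in the 2 models was tested as the Ts65Dn effect minus the Ts66Yah effect in 1 fit of the 4 groups. None of the 39 probe sets passed (limma), against 0.149% of all probe sets (0.135% higher and 0.0135% lower), 2 had an unadjusted p under 0.05 (Hopx and Vim), and the t-test setting called 0. The difference was negative for 31 of 39, with a median of -0.063, against -0.006 over all probe sets. A negative value means that the Ts65Dn effect lay below the Ts66Yah effect, and not that Ts65Dn lay below its own littermates. It was negative for 8 of 12 radial glia, 5 of 5 intermediate progenitor, 5 of 6 newborn neuron, 6 of 7 deep layer, 6 of 7 upper layer and 1 of 2 transporter probe sets. In 15 of the 39 the mean lay below euploid in Ts65Dn and above it in Ts66Yah. The share of all probe sets with such signs is not given here, so these counts are not read as particular to the members.

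Hopx had the largest difference between the models, -0.33 on the log2 scale (SE 0.12, unadjusted p = 0.006, limma adjusted p = 0.50), and Vim differed by -0.16 (SE 0.078, unadjusted p = 0.037, limma adjusted p = 0.68). Among the later stages the smallest p belonged to Eomes (-0.19, SE 0.14), Unc5d (-0.10, SE 0.10), Tbr1 (-0.13, SE 0.085), Cux2 (-0.16, SE 0.095) and Slc17a7 (-0.063, SE 0.11), with limma adjusted p between 0.76 and 0.94. The 95% interval of the difference stayed within 1.5-fold for all 39 probe sets but within 1.2-fold for 16, so for the other probe sets a difference beyond 1.2-fold lies within the interval.

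Litters were compared with genotype in the model, to see how the members varied among embryos for other reasons. In the Ts65Dn colony 0 of 39 probe sets differed among the 6 litters (limma F test, adjusted p under 10%), against 0.378% of all probe sets, and 5 had an unadjusted p under 0.05, which is 12.8% of the members against 10.7% of all probe sets. In the Ts66Yah colony 0 of 39 differed, against 0.0901% of all probe sets, and 4 had an unadjusted p under 0.05, which is 10.3% of the members against 11.5%. No other tool was run for the litters.

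Bcl11b (CTIP2), a deep layer factor, had the smallest p in the Ts65Dn colony (F = 5.93, limma adjusted p = 0.103). Measured from the mean of each embryo's own genotype group, it ran from 0.20 above in TS137 to 0.20 below in TS18 on the log2 scale. Fezf2, which acts upstream of Bcl11b, was highest in TS125 and lowest in TS113 (F = 2.70, limma adjusted p = 0.42). Of the progenitor genes, Eomes spanned 0.50 between litters TS42 and TS11 (limma adjusted p = 0.43) and Emx2 0.37 between TS125 and TS113 (limma adjusted p = 0.48). Rorb, on its first probe set, spanned 0.38 between TS113 and TS42, and Slc17a6 0.36 between TS113 and TS137. No litter was highest or lowest for all of these genes.

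Sox2, a factor that maintains progenitors, had the smallest p in the Ts66Yah colony (F = 6.27, limma adjusted p = 0.11). Measured from the genotype group means in the same way, it ran from 0.19 above in WT18 to 0.37 below in WT11. WT11 holds 3 Ts66Yah embryos and 1 EupTs66Yah embryo, and it was the lowest of the 6 litters for 18 of the 39 probe sets and the highest for 7. Btg2 spanned 0.40 between WT18 and WT15 (limma adjusted p = 0.35), Cux1 spanned 0.19 between the same litters (limma adjusted p = 0.41), and Pou3f2 0.32 between WT15 and WT12 (limma adjusted p = 0.41). Sox5, which spanned 0.61 between WT13 and WT11, had the widest span of the members in that colony (limma adjusted p = 0.64).

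Other genes of the same lineage, taken from lists beside the members, passed the test in neither model. In Ts65Dn, 9 of 14 other radial glia probe sets had a lower mean, 7 of 12 of the other intermediate progenitor and newborn neuron genes, 8 of 12 of the other deep layer and subplate genes, 5 of 8 of the other upper layer genes, 4 of 7 Cajal-Retzius genes and 2 of 3 forebrain identity genes. In Ts66Yah the number with a higher mean was 9 of 14, 9 of 12, 8 of 12, 5 of 8, 5 of 7 and 2 of 3 in the same order. Their median log2 differences ran from -0.033 to -0.0083 in Ts65Dn and from 0.027 to 0.15 in Ts66Yah.

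Aldoc, a glycolytic enzyme of radial glia and astrocytes, had the smallest p of the other radial glia genes, with a log2 difference of 0.12 (SE 0.043, limma adjusted p = 0.54) in Ts65Dn and 0.25 (limma adjusted p = 0.13) in Ts66Yah. Crym, a thyroid hormone binding protein of deep layer neurons, had the smallest p of its list in both models, with 0.21 (SE 0.081, limma adjusted p = 0.65) in Ts65Dn and 0.16 (SE 0.073, limma adjusted p = 0.38) in Ts66Yah. In Ts65Dn the smallest p of the other lists belonged to the Notch modifier Mfng (-0.18), the lipase Lpl (0.14), the homeodomain factor Lhx1 (-0.23) and the forebrain factor Otx1 (-0.22). In Ts66Yah it belonged to Nhlh1 (0.33), Inhba (0.21), Ndnf (0.15) and Tcf4 (0.093). The adjusted p of these 8 genes was 0.36 or more by limma.

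Markers of other cell types were read beside Vim, since several of those cells make vimentin, and their part in the result was not tested. In Ts66Yah the pericyte and meningeal markers had a higher mean for 9 of 9 probe sets with 0 past the test, and their list mean ran from 7.36 to 7.92 in Ts66Yah, against 7.06 to 7.82 in EupTs66Yah, a difference of 0.14 (SE 0.045) with 19 of 24 Ts66Yah embryos above the euploid median. Endothelial markers had a higher mean for 6 of 8 with 0 past the test, with list means of 7.42 to 7.89 in Ts66Yah and 7.26 to 7.73 in EupTs66Yah, a difference of 0.076 (SE 0.036, 17 of 24 above). Astrocyte markers did so for 6 of 8 with 0 past the test, with list means of 7.57 to 8.77 in Ts66Yah and 7.67 to 8.47 in EupTs66Yah, a difference of 0.12 (SE 0.062, 20 of 24 above). For other lists in Ts66Yah the difference was 0.088 (SE 0.043, 20 of 24 above) for striatal neurons and 0.13 (SE 0.11, 13 above) for midbrain and hindbrain. Other radial glia genes differed by 0.061 (SE 0.032, 20 above) and cell cycle genes by 0.066 (SE 0.033, 16 above). Choroid plexus and ependymal markers differed by 0.063 (SE 0.076, 15 above) and microglia by -0.0028 (SE 0.041, 12 above). Diencephalon markers differed by -0.022 (SE 0.054, 14 above) and erythroid markers by -0.072 (SE 0.11, 7 above). Higher list means were thus not confined to the pericyte and meningeal, endothelial and astrocyte markers. In Ts65Dn the difference was 0.042 (SE 0.051) for pericyte and meningeal, 0.0028 (SE 0.037) for endothelial and -0.001 (SE 0.048) for astrocyte markers.

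Of the 8 oligodendrocyte lineage probe sets 2 passed the test as higher in Ts66Yah, against 0.757% of all probe sets, and 6 of 8 had a higher mean. They were the myelin gene Mbp, 1.53-fold (limma adjusted p = 0.050), and the glial connexin Gjc3, 1.59-fold (limma adjusted p = 0.029). The list was chosen with earlier results of these data known. The mean of that list differed by 0.24 (SE 0.070, 20 of 24 above the euploid median) in Ts66Yah and by 0.17 (SE 0.046, 21 of 23 above) in Ts65Dn. Of the cell cycle genes 11 of 14 had a higher mean in Ts66Yah, and the mitotic kinase Aurkb was 1.17-fold higher (limma adjusted p = 0.092). Values of Mbp, Gjc3 and Aurkb under the other settings are not given here. Over all probe sets the count past the threshold in Ts66Yah was 207. It was 38 with every array kept and 326 without the arrays at the other genotype's level. In Ts65Dn 0 of the marker genes passed, 11 of 14 cell cycle genes had a lower mean with a median log2 difference of -0.050, and 7 of 8 oligodendrocyte lineage probe sets had a higher mean. Markers of the ventral forebrain and interneurons, which the dissected hemispheres also hold, had a lower mean for 8 of 11 in Ts65Dn and a higher mean for 6 of 11 in Ts66Yah, with 0 past the test in either.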

How the data were processed

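Forebrain RNA of 89 embryos was measured on Clariom S high throughput arrays, 1 array per embryo. The authors computed 1 log2 signal per probe set with RMA, per the submitters' processing notes; for RMA, the version was not given in the sources used here. Arrays of 1 colony, as deposited, differ somewhat in spread and median, so they do not share 1 distribution. Depth does not apply to arrays, and the number of embryos limits the precision.

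Probe sets were named through GEO's platform annotation, in which 19572 of the 22206 carry 1 gene symbol. Groups come from the genotype labels. The labels do not say how embryos were chosen within litters. The members and lists were chosen with earlier results of these data known. Each trisomic group was compared with the euploid group of its colony with limma 3.58.1 in R 4.3.3 (two-sided, lmFit and eBayes), p-values being adjusted by Benjamini-Hochberg across the 22206 probe sets, with no filter and a threshold of 10%, as in the series. The Ts66Yah colony was fitted without arrays whose standard deviation was under 0.75 of the colony median, which is 1 array of EupTs66Yah. The difference of the effects was fitted on 88 arrays. Litters were tested by a moderated F test with genotype in the model. Intervals are 95% intervals of the fit.

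Full values are given for each member past the threshold and for the 2 members of each stage with the smallest p, in the litter tests for the genes of smallest p. Neurod6 in Ts65Dn, Tubb3 and Rorb were added after their values were seen. Replicate numbers follow accession order and pair nothing. The main genotype fits had no litter term and treated littermates as independent. The litter served as the block only in the alternative named below. The limma script was tested on simulated data. Alternatives were the litter as a block, the sex label as a covariate, the unpaired t-test and the marginal criterion of the series (ratio under 0.8 or over 1.2 with an unadjusted p under 0.01), a threshold of 0.05, array weights, centring of each array, a filter at the median signal, a robust and trended prior, quantile normalization, every array kept, without arrays at the other genotype's level and leaving out each litter. Array spread as a covariate and leaving out narrower arrays were chosen after seeing the data. Promoters were taken from RefSeq on GRCm38.p6, where 37 of the 40 genes matched. Python 3.11.15 with matplotlib 3.10.9 made the figures.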

Additional observations from a re-analysis of the deposited data

How the results depend on the processing

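The number of embryos and the spread among littermates set the limits: intervals within 1.5-fold leave room for modest changes, and signals of whole hemispheres blur changes in single cell types. In Ts65Dn the count of members past the threshold stayed at 0 under each alternative run, the litter as a block included. In Ts66Yah the 1 member past it, Vim, was lost, leaving 0, with the litter as a block (replicate block; adjusted p = 0.12), the sex label as a covariate (0.10), the marginal criterion of the series, a threshold of 0.05, quantile normalization (0.11), centring (0.15), every array kept (0.51), array spread as a covariate (0.31), without the narrower arrays (0.41), and without litter WT12, WT13, WT15 or WT18, so that leaving out litters gave counts of 0 to 1 and adjusted p of 0.017 to 0.48. It passed with the t-test (0.065), the filter at the median signal (0.040), array weights (0.066), the robust prior (0.040), without the arrays at the other genotype's level (0.017) and without WT11 (0.050) or WT19 (0.017). The cause was not tested. The difference of effects counted 1 member (Hopx) under the marginal criterion, against 0. The litter test of the Ts65Dn colony counted 1 member (Bcl11b) after centring (0.095) and with the filter (0.031), and that of the Ts66Yah colony 1 (Sox2) with quantile normalization (0.074), centring (0.093) and the filter (0.034). With every array kept the stage means in Ts66Yah differed by 0.16 for radial glia (against 0.065), 0.17 for newborn neurons (against 0.0085), 0.17 for deep layer neurons (against 0.041) and 0.20 for the transporters (against 0.045), and the sign turned for upper layer neurons (0.10, against -0.012) and intermediate progenitors (-0.011, against 0.011).

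No member that changed direction had passed the test. In Ts66Yah, Cux2 was at -0.0048 with array weights, -0.00073 with array spread as a covariate and -0.021 without the narrower arrays; with every array kept Neurod6 was at 0.11, Cux1 at 0.011 and Slc17a6 at 0.17; and Btg2 ran from -0.12 without WT12 to 0.0025 without WT13. In Ts65Dn, Sox5 ran from -0.12 without TS18 to 0.0071 without TS42. In the difference of effects, Slc17a6 was at -0.030 with array weights, -0.26 with every array kept, -0.028 without WT13, -0.0018 without WT19, -0.039 without TS137, -0.069 without TS125 and at most 0.062 without TS113; Dcx ran from -0.10 without WT19 to 0.00041 without WT18, and Unc5d from -0.16 without TS137 to 0.0031 without WT18.

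Counts over all probe sets moved more. Against 109 in Ts65Dn, the marginal criterion gave 246. Against 207 in Ts66Yah, the threshold of 0.05 gave 103, the marginal criterion 422, quantile normalization 133, every array 38, leaving out the arrays at the other genotype's level 326, leaving out WT12, WT15 or WT18 71, 83 and 88, array spread 91 and leaving out the narrower arrays 76. Against 33 in the difference, the marginal criterion gave 321 and every array 2. Against 84 in the litter test of the Ts65Dn colony, the filter gave 348. Against 20 in that of the Ts66Yah colony, quantile normalization gave 58, the filter 419, the threshold of 0.05 11 and every array 0.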
